A study of Rattus norvegicus with 9 samples.

Results

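Bone morphogenetic protein (BMP) ligands and the proteins that hold them in check were examined in the RNA of adipose-derived mesenchymal stem cells (ASCs) of the rat. The 9 genes were chosen by symbol. They are the ligands Bmp2, Bmp4, Bmp6, and Bmp7, the secreted antagonists Grem1 (gremlin 1), Nog (noggin), Chrd (chordin), and Fst (follistatin), and the decoy receptor Bambi. All 9 were found among the 35362 genes of the table. The ASCs were grown from inguinal subcutaneous fat (SASCs), fat around the kidney (PASCs), and epididymal fat (EASCs) of male Sprague Dawley rats aged 6 weeks. The rats were starved before the fat was taken, no group received a further treatment, and all were sequenced at passage 3. Each group had 3 samples, 9 in all. By the study's methods RNA was taken from single culture wells, with more replicates in a group than the 3 analysed here. Whether the wells of a group held cells of different animals is not stated, so p-values measure only the spread between these samples.

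BMP ligands are secreted dimers that bind type I and type II serine/threonine kinase receptors, which phosphorylate Smad1, Smad5, and Smad9 and so switch on genes such as those of the Id family. Gremlin, noggin, and chordin bind BMP ligands outside the cell and keep them from their receptors, follistatin binds activins most tightly and some BMPs as well, and BAMBI resembles a type I receptor that lacks the kinase. In adipose tissue the pathway is known for its part in the commitment of mesenchymal cells to the adipocyte lineage and in the choice between white and brown fat, and BMP6 is also known as a regulator of iron through hepcidin.

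Total counts ranged from 17591916 to 30299032 per sample. The share of ribosomal RNA genes in the counts ranged over 10.4% to 15.5% for SASCs, 22.4% to 32.9% for PASCs, and 15.9% to 40.3% for EASCs. Reads in overlapping genes were counted for each, so ribosomal reads can enter these totals and shares more than once. Levels are given as CPM, counts scaled to library size with TMM factors, on which 3 counts correspond to 0.104 to 0.159 CPM. Smaller levels are below what this depth resolves (counting error alone). Of the 9 genes, 8 passed the filter on low counts and were tested with edgeR's quasi-likelihood test among 14770 genes. Bmp7 did not pass. Differentially expressed genes (DEGs) had an adjusted p-value under 0.05 together with a change of more than 2-fold. The 8 markers of mesenchymal stem cells were detected in every group and summed to between 21037 and 27018 CPM per sample, most of it Col1a1 in PASCs and EASCs (10698, 19134, and 20332 CPM in SASCs, PASCs, and EASCs). Dcn (6880, 218, and 301 CPM) and Pdgfra (1543, 278, and 235 CPM) were lower in PASCs and EASCs than in SASCs, and Itgb1 was higher in EASCs. The 2 epithelial markers summed to at most 1.13 CPM. The 9 mesothelial markers summed to 21.6 to 23.3 CPM for SASCs, 227 to 229 for PASCs, and 192 to 206 for EASCs, with Krt18 at 0 in SASCs and Krt19 at 0 in PASCs. In bulk RNA, fewer cells of a type and less RNA per cell cannot be told apart.

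Compared with SASCs, Bmp4 and Bmp6 were upregulated DEGs in both visceral groups and Bmp2 in EASCs alone. Of these 3 ligands, Bmp6 had the largest log2 fold change in EASCs. In EASCs, 4 of the 8 tested genes were DEGs, where 27.8% of all genes tested were. Bmp2, Bmp4, and Bmp6 were upregulated, Grem1 was downregulated, and the other 4 had an adjusted p-value above 0.05. These 4 were also the ones that passed without the fold threshold, as 69.7% of all genes did, and the same 4 had samples that did not overlap between the groups, as 72.1% of all genes did. In PASCs, 3 of the 8 were DEGs, where 26.9% of all genes were. Bmp4 and Bmp6 were upregulated and Nog was downregulated, while the other 5 had an adjusted p-value under 0.05 with a fold change under 2. All 8 thus passed at any fold change (69.2% of all genes), and all 8 had non-overlapping samples (71.6% of all genes). Between EASCs and PASCs, 4 of the 8 were DEGs, where 7.39% of all genes were. Bmp6, Nog, and Bambi were higher and Grem1 was lower in EASCs. At any fold change 6 passed (30.7% of all genes), and 6 had non-overlapping samples (41.2% of all genes). The median log2 fold change of the 8 genes was 0.35 in EASCs and 0.53 in PASCs against SASCs, and 0.61 in EASCs against PASCs, beside medians of all genes within 0.01 of zero. Both comparisons with SASCs share the same 3 SASCs samples. Bmp4 passed the filter only through PASCs and EASCs, where it is high, so its entry in these counts and medians is not free of that choice.

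**Figure D1:**
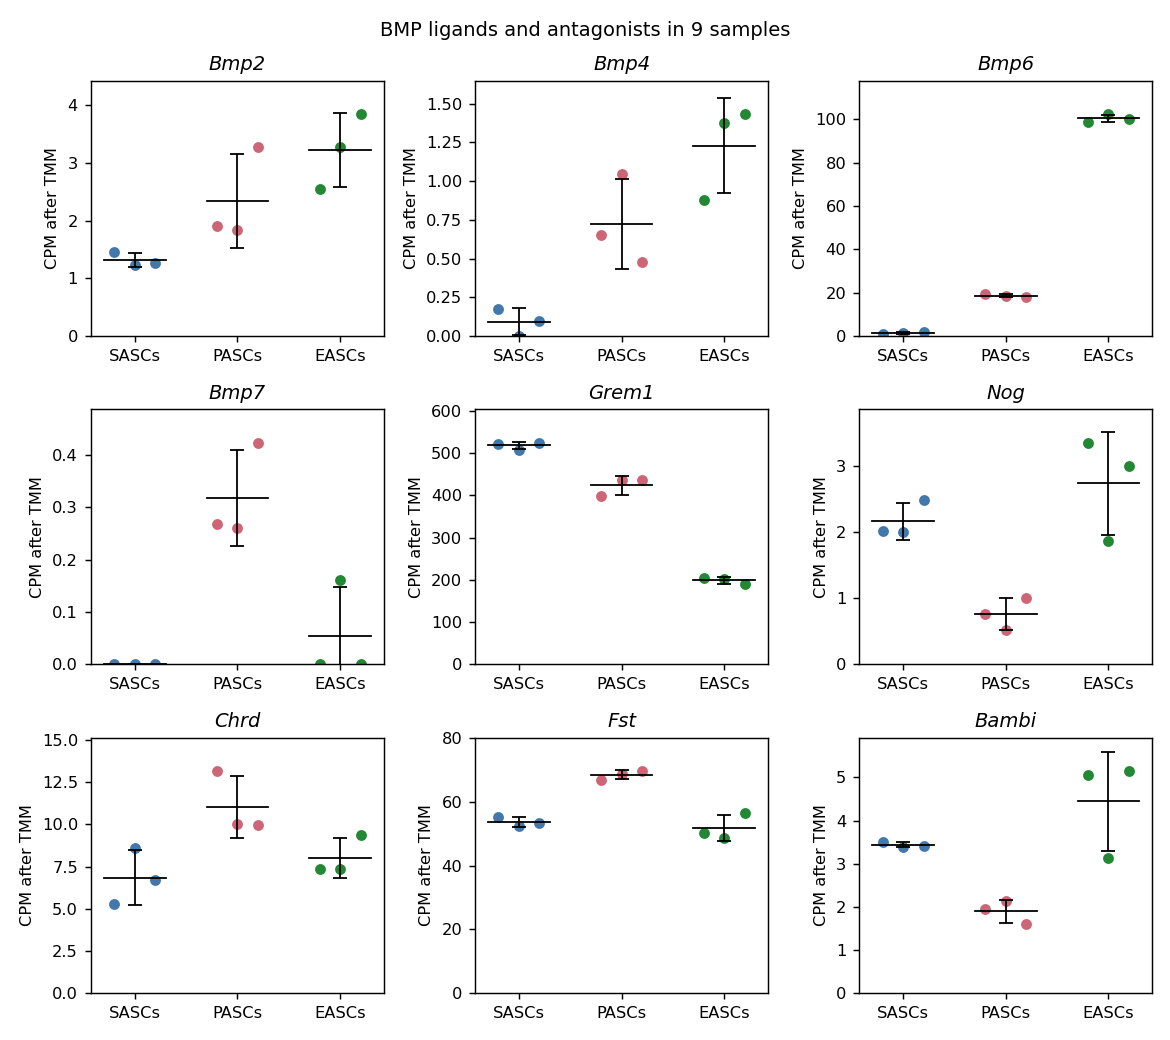
Level of each of the 9 genes in CPM after TMM scaling (y axes start at 0 and differ between panels), with 1 point per sample in SASCs, PASCs, and EASCs; horizontal lines and bars are the mean and SD of 3 samples. Bmp6 had a mean of 1.37 CPM in SASCs and 100.4 CPM in EASCs, Grem1 was lowest in EASCs, and Nog and Bambi were lowest in PASCs.

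The promoters of Bmp4 and Bmp6 are shown because both ligands were upregulated in PASCs and EASCs. RefSeq promoters (GRCr8, from 250 bases before to 50 bases after a transcript start) were found for 6 of the 9 genes, Bmp4, Bmp6, Grem1, Nog, Chrd, and Bambi. The windows of Bmp4 (chr15:22101884-22102183, minus strand) and Bmp6 (chr17:26675212-26675511, minus strand) are printed 5′ to 3′ along the gene, and capitals mark GGGCGG, the GC box, or its reverse complement.
Bmp4: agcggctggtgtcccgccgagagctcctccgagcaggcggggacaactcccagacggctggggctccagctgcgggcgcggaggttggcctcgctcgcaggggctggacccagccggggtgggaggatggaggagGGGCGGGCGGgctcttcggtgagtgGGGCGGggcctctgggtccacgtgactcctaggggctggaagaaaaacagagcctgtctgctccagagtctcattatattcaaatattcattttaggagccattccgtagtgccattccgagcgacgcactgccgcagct
Bmp6: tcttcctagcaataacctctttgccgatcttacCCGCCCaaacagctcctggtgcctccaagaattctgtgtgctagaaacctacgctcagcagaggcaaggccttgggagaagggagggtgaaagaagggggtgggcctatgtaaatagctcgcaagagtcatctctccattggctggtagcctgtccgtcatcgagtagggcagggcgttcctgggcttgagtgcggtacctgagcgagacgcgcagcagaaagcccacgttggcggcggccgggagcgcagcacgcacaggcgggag
The starts used for both lie inside the span of the gene in RefSeq, and which start was used in these cells is not known from the counts. Bmp4 had 3 GC boxes, at -115, -111, and -90 from the start, the first overlapping the second, and Bmp6 had 1, at -217. A GC box on either strand was present in 33.1% of the 33469 promoters searched. A TATA box (TATAAA, in 14.2% of all promoters), an AP-1 site (TGACTCA, 4.63%), and GTCTAGAC, a pair of Smad4 boxes (0.197%), had no match on either strand of the 6 windows, and GGAATG, the TEAD motif (14.2%), was found only in Bmp4, at 10 and 23. Neither window above held GGCGCC, a palindrome known from BMP-responsive elements. The windows contained 65.0% and 59.3% G and C, where the median of all promoters was 51.7%.

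Bmp6 (chr17:26955142-27112820, rn6, minus strand), a ligand of the subgroup of Bmp5 and Bmp7, differed between all 3 groups. Its level was 1.01, 1.49, and 1.61 CPM in SASCs, from 29 to 35 counts per sample. It was 19.6, 18.3, and 18.0 CPM in PASCs, from 340 to 512 counts, and 98.9, 102, and 100.0 CPM in EASCs, from 2235 to 2523 counts. The 3 groups did not overlap, and the spread within EASCs was 1.71 CPM (SD, n = 3) at a mean of 100.4 CPM. The log2 fold change was 6.23 (SE 0.108, 74.9-fold, adjusted p = 2.61e-26, edgeR) in EASCs and 3.80 (SE 0.123, 13.9-fold, adjusted p = 2.31e-20, edgeR) in PASCs against SASCs. EASCs were also higher than PASCs, by 2.43 (SE 0.0744, 5.38-fold, adjusted p = 1.42e-19, edgeR). The sum of 6 smooth muscle and pericyte markers stood in the same order as Bmp6, at 96.1 to 100.5 CPM for SASCs, 1152 to 1186 for PASCs, and 2967 to 3001 for EASCs. Most of it was Acta2 (55.7, 911, and 2200 CPM), and 5 of the 6 were DEGs higher in each visceral group than in SASCs. Rgs5 was lower in both (1.25, 0.0759, and 0.169 CPM), and Cspg4 was highest in PASCs (8.30, 66.6, and 50.2 CPM). The 7 leukocyte markers, of which Cd68 and Csf1r are typical of macrophages, summed to 52.9 to 56.8 CPM for SASCs, 127 to 132 for PASCs, and 187 to 198 for EASCs. The sum of the mesothelial markers given above was also higher in PASCs and EASCs than in SASCs. The part of these cells in the levels of Bmp6, Bmp4, and Bmp2 was not tested.

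Bmp4 (chr15:20776060-20791014, minus strand), which is known to commit mesenchymal stem cells to the adipocyte lineage, was present at far lower counts. SASCs had 5, 0, and 2 counts, or 0.174, 0, and 0.0976 CPM. PASCs had 17, 28, and 9 counts (0.650, 1.05, and 0.477 CPM), and EASCs had 21, 34, and 32 counts (0.879, 1.38, and 1.43 CPM). No sample of SASCs reached the lowest sample of the other groups, whereas PASCs and EASCs overlapped. Bmp4 rose by a log2 fold change of 3.62 (SE 0.603, adjusted p = 6.98e-06, edgeR) in EASCs and 2.89 (SE 0.639, adjusted p = 2.60e-04, edgeR) in PASCs. It passed the filter only through PASCs and EASCs, where it is high, so these p-values are not free of that choice. The size of the change rests on 7 counts in all of SASCs. The counting interval of the ratio of pooled levels ran from 5.94 to 32.7 in EASCs and from 3.55 to 20.4 in PASCs, and without SASCs replicate 1 the log2 fold changes were 4.60 and 3.87, the latter above that of Bmp6 in PASCs without the same sample (3.59). EASCs and PASCs differed by 0.73 (95% interval -0.17 to 1.62, adjusted p = 0.226, edgeR). The transcript overlaps LOC102548186 on the other strand, which had 0 counts in every sample.

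Bmp2 (chr3:126335963-126345881, plus strand), the ligand closest to Bmp4 in sequence, was at 1.46, 1.23, and 1.27 CPM in SASCs. It was at 1.91, 1.83, and 3.28 CPM in PASCs and at 2.55, 3.28, and 3.85 CPM in EASCs. All 6 visceral samples exceeded the SASCs samples, and PASCs replicate 3 lay well above the other PASCs samples, within the range of EASCs. Bmp2 was upregulated in EASCs by a log2 fold change of 1.28 (SE 0.268, 2.42-fold, adjusted p = 1.45e-04, edgeR). In PASCs the value was 0.79 (SE 0.278, adjusted p = 0.0138, edgeR), and without PASCs replicate 3 it was 0.50 (adjusted p = 0.132). The difference between EASCs and PASCs was 0.49 (95% interval -0.03 to 1.01, adjusted p = 0.155, edgeR), and 0.78 (adjusted p = 0.0293) without that sample. With total counts in place of TMM the value in EASCs against SASCs was 0.87, under the fold threshold, while the median of all genes shifted to -0.39.

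Bmp7 (chr3:170879977-170955820, minus strand), known for its role in kidney development and in brown fat, was near the limit of detection. It had 0 counts in all 3 samples of SASCs and 7, 7, and 8 counts in PASCs. In EASCs, 4 counts were found in replicate 2 and 0 in the others. In CPM, PASCs stood at 0.268, 0.262, and 0.424, which is above the level of 3 counts in each of them. Summed over each group, PASCs were at least 7.44-fold higher than SASCs, taking 3 counts over the group as the limit for SASCs. The ratio of EASCs to PASCs was 0.184 (95% counting interval 0.0461 to 0.542). These values cover counting error alone and carry no replicate test, since Bmp7 was left out by the filter. Without the filter edgeR gave an adjusted p of 0.00245 for PASCs against SASCs and 0.190 for EASCs against PASCs.

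**Figure D2:**
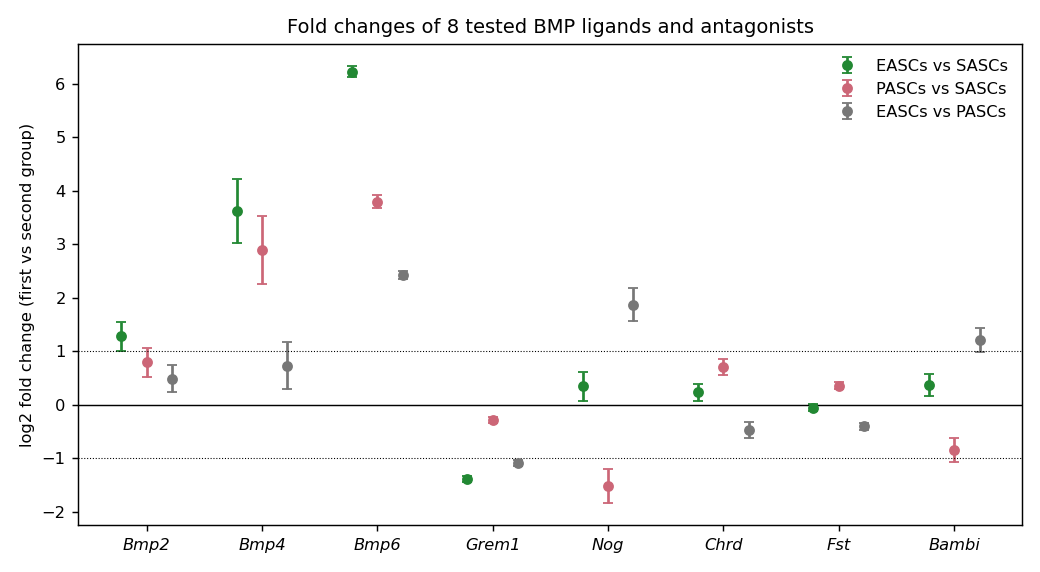
Fitted log2 fold changes (points) with standard errors (bars) of the 8 tested genes in the 3 comparisons named in the key; dotted lines mark a fold change of 2 in either direction. Bmp6 stands at 6.23 and 3.80 against SASCs, while Grem1 is at -1.38 in EASCs and -0.29 in PASCs and Nog is at 0.34 and -1.52.

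Among the antagonists, Grem1 was lower in EASCs than in both other groups, Nog and Bambi were lowest in PASCs, and Chrd and Fst differed by less than 2-fold in every comparison. Of these 5 genes, 1 was a DEG in EASCs against SASCs, 1 in PASCs against SASCs, and 3 in EASCs against PASCs, where the shares of all genes were 27.8%, 26.9%, and 7.39%. The promoters of Nog (chr10:74627452-74627751, minus strand, GRCr8) and Bambi (chr17:58820954-58821253, minus strand, GRCr8) are printed because both genes were lowest in PASCs and both windows hold GGCGCC, shown in capitals together with GC boxes on either strand.
Nog: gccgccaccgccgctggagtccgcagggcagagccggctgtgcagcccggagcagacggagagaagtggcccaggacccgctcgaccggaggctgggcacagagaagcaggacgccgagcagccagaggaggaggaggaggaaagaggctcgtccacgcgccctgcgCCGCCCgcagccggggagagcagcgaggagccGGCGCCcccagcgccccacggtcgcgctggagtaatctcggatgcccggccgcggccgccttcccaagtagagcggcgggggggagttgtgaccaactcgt
Bambi: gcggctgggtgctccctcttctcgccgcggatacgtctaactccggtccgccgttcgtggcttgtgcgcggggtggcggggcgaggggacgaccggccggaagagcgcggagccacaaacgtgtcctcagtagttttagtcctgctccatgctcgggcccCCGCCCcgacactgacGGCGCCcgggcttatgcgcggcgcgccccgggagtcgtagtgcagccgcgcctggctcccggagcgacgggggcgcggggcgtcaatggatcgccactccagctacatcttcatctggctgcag
GGCGCC began at -51 in Nog, -74 in Bambi, -91 in Grem1, and -203 in Chrd, so that 4 of the 6 windows held it, as did 11.0% of all promoters. It is rich in G and C, as were these windows, with 73.0% in Nog, 70.3% in Bambi, 70.0% in Grem1, and 78.7% in Chrd. The 4 genes with GGCGCC did not move together, since Grem1 was lowest in EASCs and Chrd was highest in PASCs. A match describes the letters of a window and not a bound site.

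Grem1 (chr3:105203309-105214989, minus strand), which binds Bmp2, Bmp4, and Bmp7, had between 4225 and 14995 counts in a sample. The 3 SASCs samples had 521, 508, and 524 CPM. The 3 PASCs samples had 398, 437, and 437 CPM, and the 3 EASCs samples had 204, 203, and 189 CPM. No groups overlapped. Grem1 fell by 1.38 on the log2 scale (SE 0.0562, 2.61-fold lower, adjusted p = 4.13e-18, edgeR) in EASCs against SASCs and by 1.09 (SE 0.0560, 2.13-fold lower, adjusted p = 6.64e-15, edgeR) against PASCs. The difference between PASCs and SASCs was small beside these, at -0.29 (SE 0.0549, adjusted p = 4.30e-05, edgeR). The sum of the Schwann cell markers stood in the same order, at 30.0 to 33.9 CPM for SASCs, 7.54 to 9.05 for PASCs, and 1.84 to 2.06. Adipocyte markers summed to 87.1 to 95.9, 19.1 to 20.2, and 9.24 to 10.1 CPM. Their part in the level of Grem1 was not tested.

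Nog (chr10:76811759-76813386, minus strand), a secreted antagonist that binds Bmp2 and Bmp4 with high affinity, was low in all groups. It was at 2.02, 2.00, and 2.49 CPM in SASCs, at 0.765, 0.523, and 1.01 CPM in PASCs (14 to 20 counts), and at 3.35, 1.86, and 3.0 CPM in EASCs. PASCs were below every sample of the other groups, and SASCs and EASCs overlapped. Nog was lower in PASCs than in SASCs by a log2 fold change of -1.52 (SE 0.315, 2.88-fold lower, adjusted p = 1.21e-04, edgeR). EASCs were higher than PASCs by 1.86 (SE 0.309, 3.64-fold, adjusted p = 2.60e-05, edgeR). EASCs and SASCs differed by 0.34 (95% interval -0.21 to 0.89, adjusted p = 0.262, edgeR).

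Bambi (chr17:56905419-56909675, minus strand), the receptor without a kinase and itself a known target of BMP signaling, followed the same order. SASCs were at 3.51, 3.40, and 3.42 CPM, PASCs at 1.95, 2.13, and 1.59 CPM, and EASCs at 5.07, 3.12, and 5.14 CPM. PASCs lay below all other samples, and EASCs replicate 2 lay below SASCs. The log2 fold change of EASCs against PASCs was 1.21 (SE 0.220, 2.32-fold, adjusted p = 8.49e-05, edgeR). PASCs against SASCs had a value of -0.85 (SE 0.225, adjusted p = 0.00158, edgeR), short of a fold change of 2. EASCs against SASCs had 0.36 (95% interval -0.06 to 0.79, adjusted p = 0.116, edgeR), and 0.57 (adjusted p = 0.0179) without EASCs replicate 2, which was low for both Bambi and Nog. The sum of the 6 endothelial markers was also lowest in PASCs, at 11.7 to 14.6 CPM, against 44.3 to 46.0 in SASCs and 30.5 to 33.1 in EASCs, with none at 0 throughout a group. Of the 6, 5 were DEGs lower in PASCs than in SASCs, whereas Tek was higher in PASCs (2.55, 8.30, and 8.08 CPM in SASCs, PASCs, and EASCs). Their part in the levels of Nog and Bambi was not tested.

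Chrd (chr11:83858503-83867543, minus strand), the large secreted antagonist cleaved by Bmp1 and tolloid proteases, was at 5.28, 8.57, and 6.69 CPM in SASCs. It was at 13.2, 10.0, and 9.96 CPM in PASCs and at 7.33, 7.34, and 9.39 CPM in EASCs. The PASCs samples were the highest, and SASCs and EASCs overlapped. The log2 difference of PASCs from SASCs was 0.70 (SE 0.156, adjusted p = 2.79e-04, edgeR), and that of EASCs from PASCs was -0.47 (SE 0.154, adjusted p = 0.0210, edgeR), which became -0.32 (adjusted p = 0.179) without PASCs replicate 1. Chrd overlaps Clcn2 on the other strand, which had at most 2 counts in a sample.

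Fst (chr2:46537589-46544812, minus strand), the activin antagonist, had 55.3, 52.4, and 53.4 CPM in SASCs. It had 67.0, 69.0, and 69.7 CPM in PASCs and 50.2, 48.8, and 56.4 CPM in EASCs. PASCs were above all other samples, by a log2 difference of 0.35 (SE 0.0632, adjusted p = 2.02e-05, edgeR) from SASCs, and EASCs differed from PASCs by -0.40 (SE 0.0634, adjusted p = 1.17e-05, edgeR). Between EASCs and SASCs the difference was -0.05 (95% interval -0.18 to 0.08, adjusted p = 0.467, edgeR). With total counts in place of TMM, which moved the median of all genes in PASCs to -0.33, the value of Fst in PASCs was 0.03.

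To set the genes against each other, CPM was divided by the length of the gene in kilobases. Grem1 was at 135.9 ± 2.29 (SD, n = 3) CPM per kilobase in SASCs and 111 ± 5.86 in PASCs, above Fst at 18.6 ± 0.522 and 23.7 ± 0.485. In EASCs, Bmp6 came first at 66.0 ± 1.12, followed by Grem1 at 52.1 ± 2.18 and Fst at 17.9 ± 1.40, with no overlap between these neighbours. The order of Bmp6 and Grem1 in EASCs depends on the gene lengths, since by CPM Grem1 was at 198.5 and Bmp6 at 100.4. Below them, the order was Bambi (4.09), Chrd (1.86), Nog (1.33), Bmp6 (0.900), Bmp2 (0.356), and Bmp4 (0.0311) in SASCs. Chrd and Nog overlapped there, as did Bmp4 and Bmp7. In PASCs, Bmp6 followed Fst at 12.2 ± 0.555, ahead of Chrd (3.01) and Bambi (2.24), and the levels of Bmp2 (0.632), Nog (0.470), Bmp4 (0.249), and Bmp7 (0.130) each overlapped with the next. In EASCs, the remaining levels were those of Bambi (5.28), Chrd (2.18), Nog (1.68), Bmp2 (0.870), Bmp4 (0.423), and Bmp7 (0.0221), of which only Chrd and Nog overlapped.

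The sum over the 9 genes was 163 ± 2.41, 154 ± 5.36, and 146 ± 0.796 CPM per kilobase (SD, n = 3) in SASCs, PASCs, and EASCs. Without division by length the groups were further apart, at 587 ± 8.60, 528 ± 21.4, and 370 ± 2.09 CPM. The 4 ligands together took 0.789% ± 0.0977 of the sum per kilobase in SASCs, 8.62% ± 0.577 in PASCs, and 46.0% ± 1.13 in EASCs. By CPM these shares were 0.474% ± 0.0274, 4.17% ± 0.251, and 28.3% ± 0.730, in the same order but smaller. Per kilobase, Bmp6 alone was 69.3% ± 8.58 of the ligand sum in SASCs, 92.4% ± 1.60 in PASCs, and 98.1% ± 0.402 in EASCs, and by CPM it was 49.0% ± 9.38, 84.6% ± 3.18, and 95.7% ± 0.851. The share of Grem1 was 83.4% ± 0.179 in SASCs, 72.3% ± 1.32 in PASCs, and 35.6% ± 1.56 in EASCs per kilobase, and 88.2%, 80.2%, and 53.6% by CPM. The samples of the 3 groups did not overlap in the share of the ligands or of Grem1 in either unit.

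Ratios within a sample do not depend on the scaling between samples. The log2 ratio of Grem1 to Bmp6 per kilobase was 7.69, 7.09, and 7.02 in the SASCs samples, 3.02, 3.25, and 3.28 in those of PASCs, and -0.28, -0.34, and -0.41 in those of EASCs. Grem1 RNA thus exceeded Bmp6 RNA in all samples of SASCs and PASCs, and Bmp6 exceeded Grem1 in the 3 EASCs samples. The last of these directions depends on the gene lengths, 3809 bases for Grem1 and 1521 for Bmp6, since by CPM alone the mean log2 ratio in EASCs was 0.98. The ratio of Fst to Bmp6 per kilobase stood in the same order, with means of 4.39, 0.95, and -1.89. For Grem1 to Bmp2 the means were 8.58, 7.51, and 5.92, without overlap between groups. These ratios are descriptions, with no test, and they contain the differences of Bmp6, Bmp2, and Grem1 given above.

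**Figure D3:**
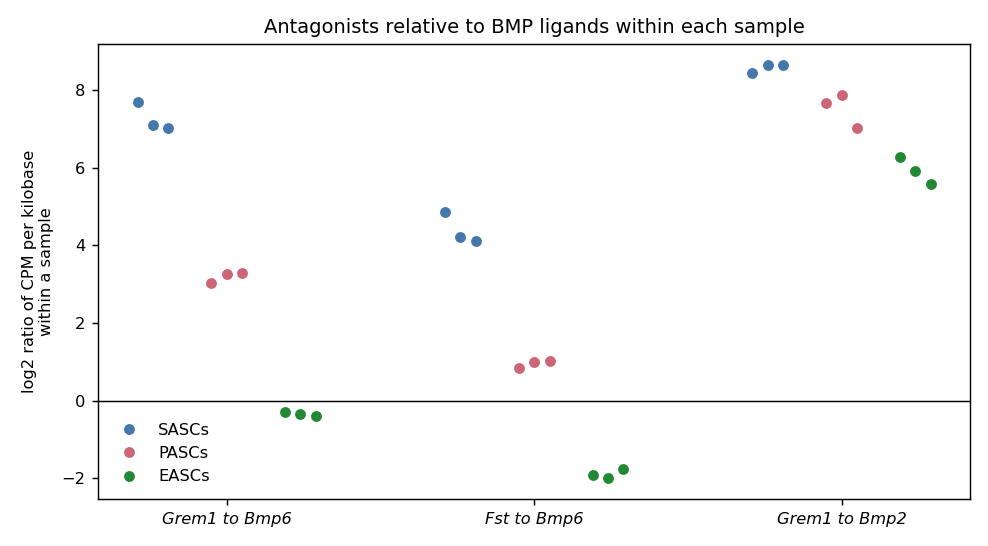
Log2 ratio of CPM per kilobase between pairs of genes within each sample, with 1 point per sample and the groups in colour; the line at zero marks equal levels. The ratios of Grem1 to Bmp6 and Fst to Bmp6 are below zero in the 3 EASCs samples and above zero in the 6 others.

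Among 62 other genes of the pathway, 45 were tested. In EASCs against SASCs, 19 of the 45 were DEGs, 13 upregulated and 6 downregulated, where 13.6% of all genes were upregulated and 14.2% downregulated. In PASCs against SASCs there were 18, with 8 up and 10 down, where the shares of all genes were 12.0% and 14.9%. Between EASCs and PASCs, 13 were DEGs, 9 higher and 4 lower in EASCs, where 5.19% and 2.20% of all genes were. Of these DEGs, 4, 5, and 2 had at most 1 sample of the lower group above the cutoff of the filter, so that they were tested only through groups where they are high, and 15, 13, and 11 DEGs were left without them. The median log2 fold changes of the 45 were 0.18, -0.12, and 0.30 in the 3 comparisons. With total counts in place of TMM the split in EASCs against SASCs was 8 up and 9 down, while that of all genes moved from 2002 up and 2103 down to 1349 and 3426. In PASCs the split of all genes moved from 1779 up and 2200 down to 1262 and 3169.

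Of 10 other BMP and GDF ligands, 4 were tested. All 4 were DEGs in EASCs, 1 up and 3 down, where 13.6% and 14.2% of all genes were, and 3 in PASCs, 1 up and 2 down, where 12.0% and 14.9% were. Gdf10, a ligand also called Bmp3b, was at 13.7 ± 0.631 (SD, n = 3) CPM in SASCs, at 0.429 ± 0.0875 in PASCs, and at 0.0419 in EASCs, where 3 counts in replicate 1 were all that was found. The ratio of EASCs to SASCs was 0.00311 (95% counting interval 0.000641 to 0.00913), and the log2 fold change in PASCs was -5.01 (SE 0.240, adjusted p = 1.68e-16, edgeR). Gdf6, a ligand related to Gdf5, had 0 counts in SASCs. PASCs had 33, 15, and 11 counts, and EASCs had 78, 84, and 82. It was at least 83.5-fold higher in EASCs and at least 20.0-fold higher in PASCs than in SASCs, taking 3 counts over the group as the limit. Its span overlaps that of Ube2w on the same strand, which had up to 1072 counts, so reads could have been shared between them. Gdf5, known from joint development, fell by 2.18 on the log2 scale in EASCs (adjusted p = 0.00282, edgeR) and 2.91 in PASCs (adjusted p = 4.40e-04, edgeR), from 48 counts in all of SASCs, and without PASCs replicate 1 the latter value was -3.77. Gdf5 passed the filter only through SASCs, where it is high, as did Gdf10, and Gdf6 only through PASCs and EASCs. Bmp3, which opposes other BMPs, was lower in EASCs (-1.83, SE 0.404, adjusted p = 2.58e-04, edgeR).

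**Figure D4:**
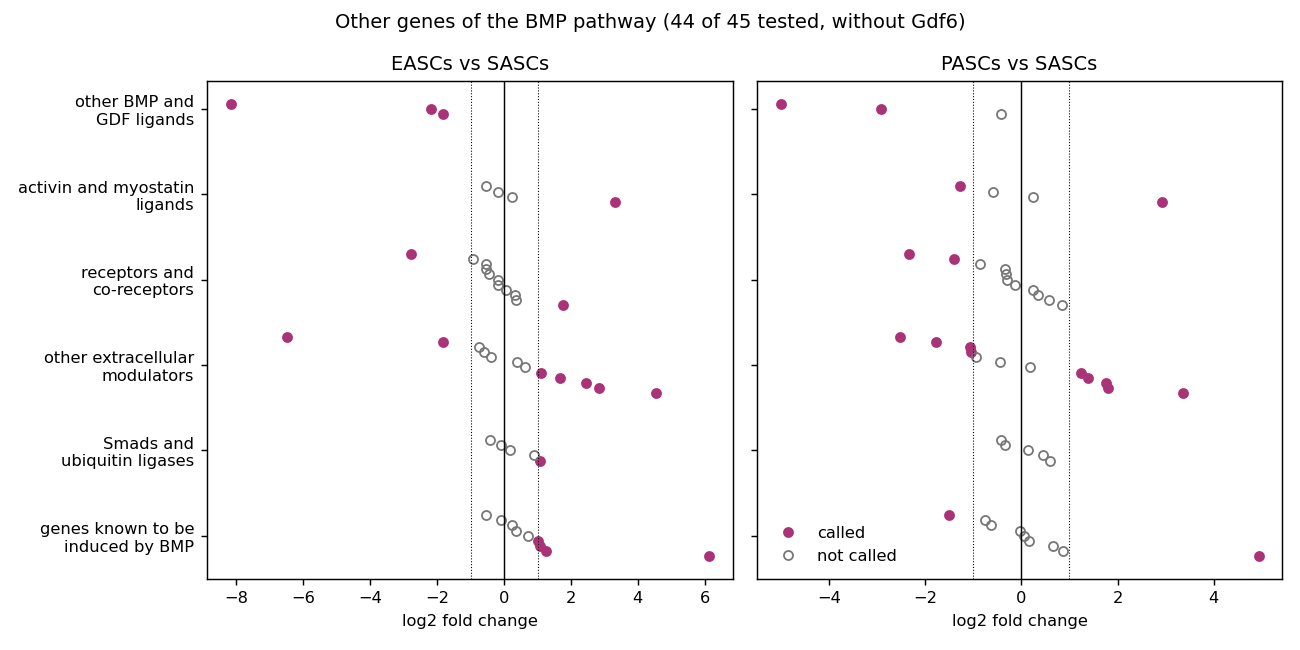
Log2 fold changes against SASCs of the other tested genes of the pathway by class, in EASCs (left) and PASCs (right); filled points are DEGs, open points are not, and dotted lines mark a fold change of 2. Gdf6, at 0 counts in SASCs, is not drawn. Chrdl1 is the lowest extracellular modulator at -6.49 in EASCs, and Dlx5 is the highest of the genes known to be induced by BMP at 6.12.

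Follistatin's main partners, the activins, were measured too. Inhba, which encodes the subunit of activin A, was upregulated by 3.32 (SE 0.0636, adjusted p = 2.13e-25, edgeR) in EASCs and 2.93 (SE 0.0630, adjusted p = 2.96e-24, edgeR) in PASCs, from 34.9 ± 2.24 to 349 ± 12.1 and 266 ± 13.5 CPM (SD, n = 3). Inhbb, the subunit of activin B, was lower in PASCs (-1.27, SE 0.0817, adjusted p = 1.12e-13, edgeR). The mean log2 ratio of Fst to Inhba per kilobase was 2.62, 0.04, and -0.76 in SASCs, PASCs, and EASCs, and 0.62, -1.96, and -2.75 by CPM, so the sign in PASCs depended on gene length while the order did not. Of 11 tested receptors and co-receptors, 2 were DEGs in EASCs and 2 in PASCs, where 27.8% and 26.9% of all genes were. The co-receptor Tgfbr3 (betaglycan) was downregulated by 2.79 (SE 0.0633, adjusted p = 6.98e-24, edgeR) and 2.35 (SE 0.0619, adjusted p = 2.71e-22, edgeR) on the log2 scale, and Eng (endoglin), a co-receptor for Bmp9 and TGF-beta, was upregulated by 1.77 (SE 0.0588, adjusted p = 3.91e-20, edgeR) in EASCs. Acvr2b, an activin and BMP receptor, had -1.40 in PASCs (adjusted p = 0.0308, edgeR) from at most 19 counts per sample. It passed the filter only through SASCs, where it is high, and the call was lost without SASCs replicate 3, PASCs replicate 2, or PASCs replicate 3 (adjusted p = 0.0948 to 0.160).

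Of 12 tested extracellular modulators other than the 9 genes, 7 were DEGs in EASCs (5 up, 2 down), where 27.8% of all genes were, and 9 in PASCs (5 up, 4 down), where 26.9% were. Chrdl1 (chordin-like 1), which binds BMPs as chordin does, was at 107 ± 4.57 CPM in SASCs, 18.6 ± 2.77 in PASCs, and 1.19 ± 0.266 in EASCs. Its log2 fold changes were -2.53 (SE 0.0845, adjusted p = 4.94e-20, edgeR) and -6.49 (SE 0.125, adjusted p = 2.28e-25, edgeR). The sums of the Schwann cell and adipocyte markers given above stood in the same order, and their part in the level of Chrdl1 was not tested. Fstl3, a follistatin relative that binds activins, rose by 4.55 (SE 0.158, adjusted p = 1.15e-19, edgeR) in EASCs and 3.35 (SE 0.170, adjusted p = 6.09e-16, edgeR) in PASCs. Bmper, which binds BMPs outside the cell, rose by 2.83 (SE 0.0605, adjusted p = 2.05e-24, edgeR) and 1.76 (SE 0.0600, adjusted p = 7.83e-20, edgeR). Other DEGs of this class, named after their values were seen, were Fstl1 (1.67 in EASCs and 1.39 in PASCs), Nbl1 (-1.83 and -1.07), and Crim1 (1.11 in EASCs), and in PASCs Tll1 (1.25), Chrdl2 (-1.78), and the chordin protease Bmp1 (-1.05). With total counts in place of TMM, Crim1 in EASCs (0.72) and Tll1 in PASCs (0.92) were under the fold threshold.

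Of 5 Smads and ubiquitin ligases, Smurf1, a ligase that marks Smads and receptors for degradation, was the only DEG, at 1.09 (SE 0.0579, adjusted p = 1.78e-15, edgeR) in EASCs, and 0.69 with total counts in place of TMM. The class thus had 1 of 5 in EASCs and 0 of 5 in PASCs, where 27.8% and 26.9% of all genes were DEGs. In PASCs all 5 had an adjusted p-value under 0.05 in edgeR with a fold change under 2. Without the fold threshold 69.2% of all genes passed too (the largest adjusted p of the 5 was that of Smad1, 0.0440 in edgeR and 0.0782 with DESeq2). Of 9 tested genes known to be induced by BMP, 4 were upregulated in EASCs, where 13.6% of all genes were. In PASCs 1 was upregulated and 1 downregulated, where 12.0% and 14.9% of all genes were. Id1, Id2, and Id3, named after their values were seen, changed by less than 2-fold against SASCs. Their log2 fold changes were 0.25, -0.08, and 0.36 in EASCs and -0.62, -0.76, and 0.17 in PASCs. Dlx5, a homeobox factor of bone formation, had 5 counts in all of SASCs, 160 in PASCs, and 364 in EASCs, and its log2 fold changes were 6.12 (SE 0.413, adjusted p = 3.34e-13, edgeR) and 4.93 (SE 0.460, adjusted p = 2.82e-10, edgeR), and 6.81 and 5.62 without SASCs replicate 2. It passed the filter only through PASCs and EASCs, where it is high. Msx1, another homeobox factor, had 1.25 (SE 0.143, adjusted p = 1.54e-08, edgeR) in EASCs, and Id4, an inhibitor of helix-loop-helix factors, had 1.06 (SE 0.161, adjusted p = 1.69e-06, edgeR). With total counts in place of TMM these were 0.83 and 0.64, under the threshold, and Id4 was also under it, at 0.95 and 0.94, without SASCs replicate 3 or EASCs replicate 3. The inhibitory Smad7, named after its value was seen, sat at the threshold with 1.00 in EASCs, and was below it at 0.98 with RLE factors and with DESeq2 and at 0.60 with total counts. Atoh8, a helix-loop-helix factor, was downregulated in PASCs (-1.51, SE 0.106, adjusted p = 8.21e-13, edgeR). Atoh8 was lowest in PASCs, as were Nog, Bambi, and all endothelial markers but Tek, and the part of endothelial cells in its level was not tested.

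Genes with the pattern most like each ligand or antagonist were found by Pearson's correlation of log2 CPM over the 9 samples, among 8563 genes at a mean of at least 10 CPM. The 9 points fall into 3 groups, so the values mainly describe the order of the group means and carry no test. Bmp6 was followed most closely by Pkp1 (r = 0.998), Prss23, and Meis1, and 499 genes had r above 0.95 with it. For Grem1 they included Hmgcs1 (r = 0.996), an enzyme of cholesterol synthesis, and the potassium channel Kcnk2, with 107 genes above 0.95. Hmgcs1 stood at 345, 268, and 87.3 CPM in SASCs, PASCs, and EASCs. Nog was most like Fn1 (r = 0.966), Igf1r, and Fbn1, where Fn1 (fibronectin) and Fbn1 (fibrillin 1) are matrix proteins and 4 genes had r above 0.95. Bambi was most like Cpe (r = 0.967), Nek6, and Dlgap4. Bmp2 was most like Iffo2, Igf2r, and Mast3, with a highest r of 0.965, and Bmp4 was most like Msr1, Psmf1, and Apbb1, with a highest r of 0.974. Fst was most like Oxsr1, Haus3, and Blvrb, with a highest r of 0.976, and Chrd was most like Dvl1, Dalrd3, and LOC304396, with a highest r of 0.969.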

How the data were processed

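Total RNA of the 9 samples was sequenced as paired-end reads of 150 bp. After trimming, the authors aligned the reads with TopHat2 and deposited raw counts of reads per gene. The submitters' processing notes name rn5 and the study's methods rn6, and since gene ends in the table reach the chromosome ends of rn6, positions are given on rn6. The counting tool and the use of strand are not given in the sources used here. The 18S and 28S genes together held 99.9% to 100.0% of the counts of the 45S gene, so reads in overlapping genes were counted for each.

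Counts were scaled by TMM (factors 0.740 to 1.23), filtered with filterByExpr (minimum count 10), and tested in edgeR 4.0.16 (R 4.3.3) with 1 quasi-likelihood model of the 3 groups and Benjamini-Hochberg adjustment. The thresholds were those of the study, which used DEGseq. Replicates differed by more than counting noise (chi-square per degree of freedom 4.58 to 18.0). In simulated counts for EASCs against SASCs, 195 of 200 changed genes were recovered among 14435 tested, and 1 unchanged gene was called.

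The genes and lists were chosen with earlier results of these data known. Named are the 9 genes, at most 4 genes per pathway list with the largest change among DEGs against SASCs, and the 3 genes most correlated with each tested gene, except for a few genes that are not reported here. Further genes were named after their values were seen, as the text says of each. Alternatives were DESeq2 1.42.0, RLE factors, total counts with and without rRNA genes, no filter, a fit of 2 groups, a replicate block, any fold change, and leaving out each sample.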

Additional observations from a re-analysis of the deposited data

How the results depend on the processing

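The counts of DEGs among the 9 genes were 4, 3, and 4 in EASCs against SASCs, PASCs against SASCs, and EASCs against PASCs, and they kept these values in every run that left out 1 sample, with DESeq2, with RLE factors, and with the groups compared alone. At any fold change, the count in PASCs against SASCs was 8 in place of 3. Without a filter it was 4, with Bmp7. With total counts in place of TMM the counts were 3, 4, and 4, Bmp2 in EASCs against SASCs was no longer past the threshold at 0.87 (adjusted p = 0.00890, edgeR), and Bambi in PASCs passed it at -1.19 (adjusted p = 4.05e-05, edgeR), so that PASCs had 2 up and 2 down in place of 2 and 1. The same setting turned the log2 fold changes of Nog (-0.09), Chrd (-0.19), and Bambi (-0.06) in EASCs against SASCs, none of which passed the test, while the median of all genes moved to -0.39, and to -0.11 with rRNA genes removed. The other pathway genes called numbered 17 to 19, 17 to 19, and 11 to 13 with a sample left out, where a group left with 2 samples is assumed to vary like the others. By CPM in place of CPM per kilobase, the log2 ratio of Grem1 to Bmp6 was 8.59, 4.51, and 0.98 in SASCs, PASCs, and EASCs, that of Fst to Bmp6 was 5.32, 1.88, and -0.96, and that of Fst to Inhba was 0.62, -1.96, and -2.75. Samples with the same replicate number did not deviate together (correlations across genes from -0.0348 to 0.0380 over 9 pairs), so the numbers were not taken as a pairing. With the replicate block, the counts were again 4, 3, and 4 for the 9 genes and 18, 18, and 12 for the other pathway genes (19, 18, and 13 without it), and no call of the 9 genes changed. Depth limits Bmp7, and the SASCs level of Bmp4, to a few counts per sample.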
